A study of Mus musculus with 4 samples.

Results

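Serpina3f, Serpina3g, Serpinb1a, Serpinb6a, Serpinb6b, and Serpinb9 are 6 genes of protease inhibitors, selected on their levels by cell class and library and on the ratios between tumor-bearing and control libraries in earlier results of these data, so these values are given as descriptions, without a test. They are 6 of the 62 genes with a Serpin symbol and of the 32285 genes in the files. Each was measured in CPM, the number of UMIs (unique molecular identifiers, 1 per captured transcript molecule) per 1000000 UMIs, in cell classes named from marker genes, in every one of 4 droplet scRNA-seq libraries.

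The libraries came from BM and spleen of female C57BL/6J mice aged 8 to 16 weeks. Tumor-bearing animals carried subcutaneous tumors of PyMT-B6, a mammary carcinoma cell line derived from an MMTV-PyMT mouse on the B6 background, in which a viral oncogene is driven by a mammary promoter, and controls were injected with PBS. CBM and TBM denote control and tumor-bearing BM, and CS and TS denote control and tumor-bearing spleen, with 1 library each and no stated number of pooled animals. In all groups digested cells were depleted of lineage-positive cells, sorted by c-Kit and Sca-1 into hematopoietic gates and by CD31 and CD51 into CD45- stromal gates, and mixed at equal ratios, so shares of cell types within a library are set by the sort. With 1 library per group no difference between groups has a replicate check, and every interval given covers counting error only.

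Serpins inhibit proteases by offering a reactive loop as bait, which springs into the body of the serpin once it is cut and holds the protease in a dead complex. Clade A serpins such as human SERPINA3 are mostly secreted, but mouse Serpina3g is an intracellular inhibitor of lysosomal cysteine cathepsins in hematopoietic cells, and it is known as a target of NF-kB and interferon signaling. Clade B serpins lack a classical signal peptide and guard the cytosol: Serpinb1a inhibits the granule proteases neutrophil elastase, cathepsin G, and proteinase-3, Serpinb6a inhibits cathepsin G, and Serpinb9 inhibits granzyme B. Serpina3f is a close paralog and neighbor of Serpina3g, and Serpinb6b is a paralog of Serpinb6a.

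Both Serpina3 genes lie on chromosome 12 (GRCm38, plus strand), Serpina3f at chr12:104214544-104221129 and Serpina3g at chr12:104236245-104241939. The 4 Serpinb genes lie in a cluster on chromosome 13, with Serpinb1a at chr13:32842092-32851185 (minus strand), Serpinb6b at chr13:32965209-32979067 (plus), Serpinb9 at chr13:33003250-33017957 (plus), and Serpinb6a at chr13:33917918-34002794 (minus). Only Serpinb6a overlaps other annotated genes, Nqo2, Ripk1, and 1110046J04Rik, each on the opposite strand. The 250 bases before the RefSeq start of the Serpina3 pair (GRCm38.p6, plus strand, chr12:104214294-104214543 for the first of 2 Serpina3f starts and chr12:104235897-104236146 for Serpina3g) are shown because these genes were the members with the largest ratios between tumor-bearing and control libraries. Capitals mark matches to the STAT-type letters TTCNNNGAA and, in Serpina3g only, to NF-kB-type letters (GGG and TTTCC with 2 bases of any kind between them), searched on both strands.
Serpina3f: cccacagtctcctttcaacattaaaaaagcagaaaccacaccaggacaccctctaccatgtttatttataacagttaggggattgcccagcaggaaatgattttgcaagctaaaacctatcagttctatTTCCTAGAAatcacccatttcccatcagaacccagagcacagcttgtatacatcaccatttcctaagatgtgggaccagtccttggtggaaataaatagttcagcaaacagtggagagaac
Serpina3g: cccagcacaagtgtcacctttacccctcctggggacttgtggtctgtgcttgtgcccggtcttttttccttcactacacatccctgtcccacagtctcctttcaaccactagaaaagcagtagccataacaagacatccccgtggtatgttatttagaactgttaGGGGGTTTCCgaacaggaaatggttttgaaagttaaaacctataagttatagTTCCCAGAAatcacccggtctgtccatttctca

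The TTCNNNGAA match began 121 bases before the Serpina3f start and 33 bases before the Serpina3g start, and the NF-kB-type match began 85 bases before the Serpina3g start. Of 32851 promoter windows of this length, 7.02% held TTCNNNGAA and 1.41% held the NF-kB-type letters. The longest run of bases shared by the 2 windows had 19 bases, and began 250 bases before the Serpina3f start and 163 before the Serpina3g start. Shorter runs were shared too, among them the bases just after the TTCNNNGAA match. The matches in these paralogs are therefore not read as independent finds. RefSeq windows matched 5 of the 6 members, without Serpinb1a. Among the Serpinb windows, the first of 2 for Serpinb6a also held TTCNNNGAA, as TTCCGGGAA, and overlapping it the interferon-type letters (GAAA, 2 bases of any kind, GAAA) on the minus strand, and the Serpinb9 window held the interferon-type letters on the minus strand, as TTTCACTTTC. The interferon-type letters were in 2.98% of all windows, and the Serpinb6b window held none of the 3 motifs. These matches are descriptions of letters and do not show that a factor binds there.

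The libraries held 101811035 (CBM) to 176094297 (TS) UMIs, and 16261 barcodes with at least 1000 genes and at most 10% mitochondrial UMIs were kept, 3236 (CS) to 5188 (TS) per library, with medians of 13738 (CBM) to 26808 (TS) UMIs. 27 barcode sequences occurred in more than 1 library, 9 of them in CBM and TBM, where 2.23 would be expected at random. The other pairs of libraries shared 2 to 5, against 1.67 to 3.31 at random. Clustering without any Serpin gene gave 37 clusters, of which 29 were named from markers into 10 classes, and 8 clusters with 2301 barcodes (14.2%) stayed unnamed. Several classes drew on different clusters in different libraries, and clusters held almost entirely by 1 library may be that library and not a cell type. Doublets were not removed.

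Serpina3g had its highest levels in megakaryocyte-like cells and in progenitor-like cells of TS. In megakaryocyte-like cells it was at 146 (137 to 156) CPM in CBM, 421 (409 to 434) in TBM, 192 (181 to 203) in CS, and 401 (382 to 420.0) in TS, where the values in parentheses are exact Poisson 95% intervals. Cells with the profile of hematopoietic stem and progenitor cells (HSPC-like) had 63.5 (59.3 to 67.9) in CBM, 154 (148 to 159.6) in TBM, 146 (134 to 159) in CS, and 286 (277 to 296) in TS. In both classes each tumor-bearing library stood above the control library of its organ, and the intervals did not overlap. The order of levels over the 30 pairs of class and library with at least 50 barcodes began with TBM and TS megakaryocyte-like cells, whose intervals overlapped, followed by TS HSPC-like cells. CS megakaryocyte-like cells came next and overlapped TBM mast or basophil-like cells, and CBM megakaryocyte-like, TBM HSPC-like, and CS HSPC-like cells overlapped one another at 146 to 154.

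**Figure D1:**
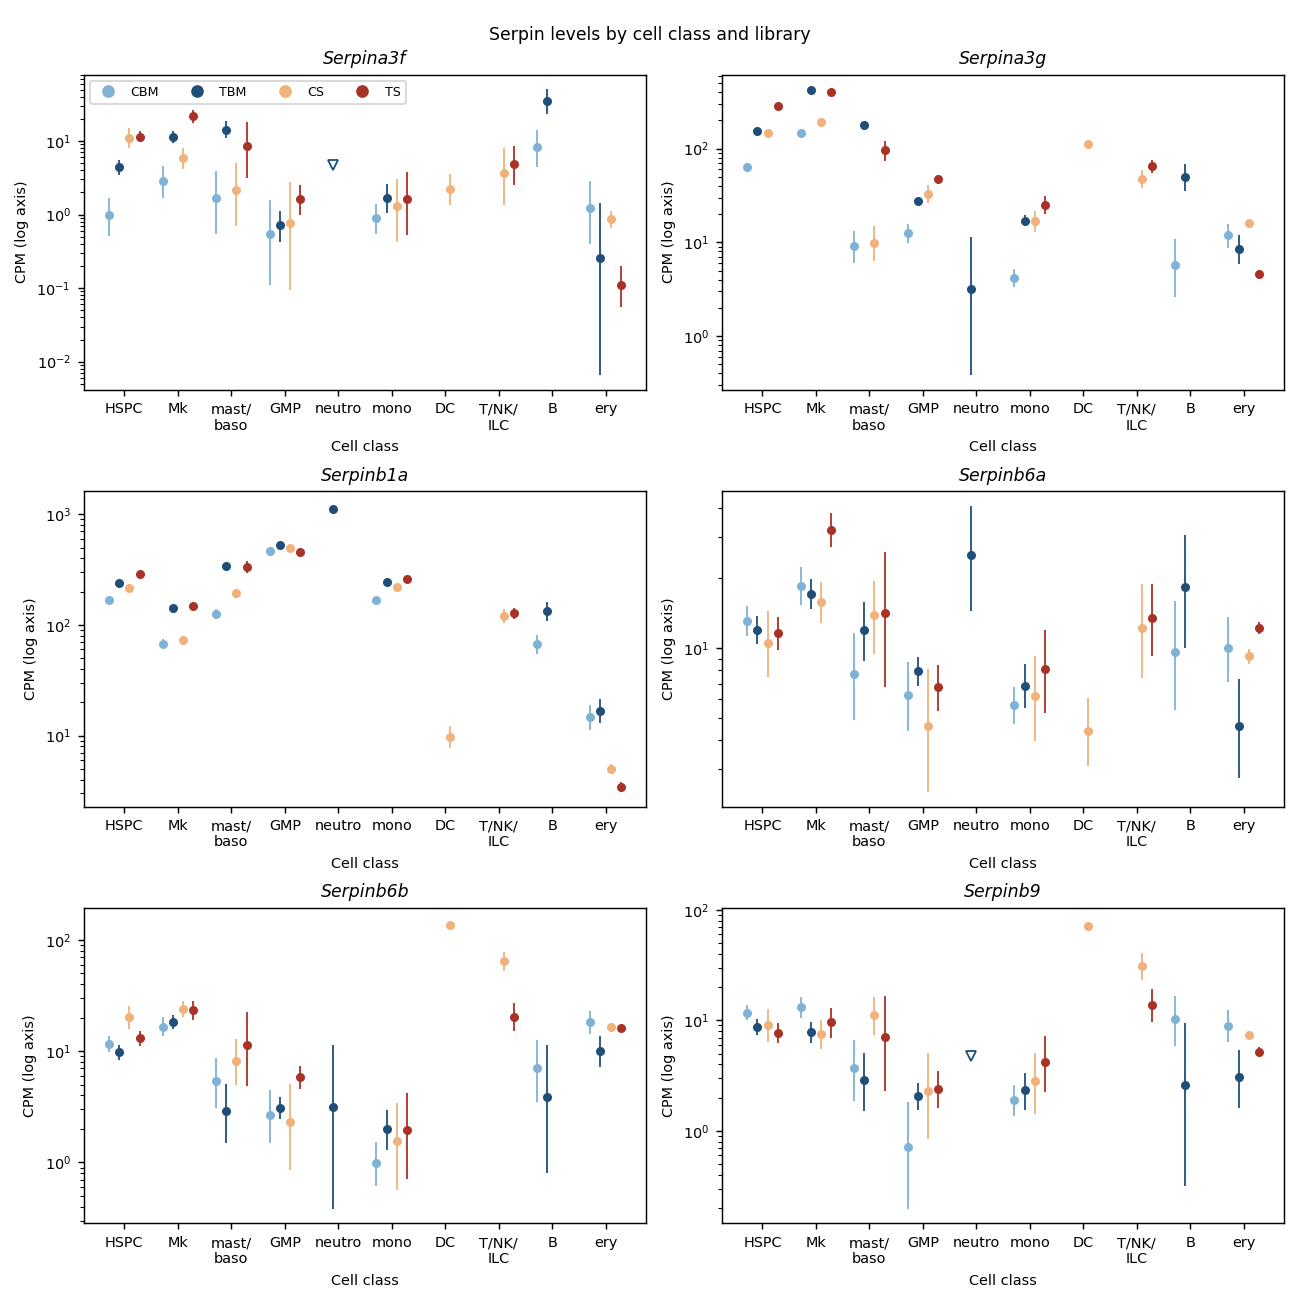
CPM (log axis) of each member by cell class, with 1 point per library (CBM light blue, TBM dark blue, CS light orange, TS red) and bars for exact Poisson 95% intervals. Pairs of class and library with at least 50 barcodes are shown, and an open triangle marks the level of 3 counts for a gene with 0 UMIs. Serpina3g is highest in Mk-like cells of TBM and TS and HSPC-like cells of TS, Serpinb1a in GMP and neutrophil precursor-like cells, and Serpinb6b and Serpinb9 in dendritic cell-like cells of CS.

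The log2 ratio of Serpina3g in HSPC-like cells was 1.27 (1.16 to 1.39) for TBM over CBM, a 2.42-fold higher level, and 0.97 (0.84 to 1.10) for TS over CS, 1.96-fold. Intervals of ratios are exact conditional 95% intervals for a pair of counts. Serpina3f and Serpina3g were the members at least 2-fold higher in TBM, whereas 2.26% of the 12788 genes with at least 20 UMIs over both libraries were. No member was past 2-fold in either direction in TS over CS, against 1.85% of genes higher and 3.88% lower. The HSPC-like class was made of clusters 0, 8, and 15, and most CBM and TBM barcodes of it (686 and 730) lay in cluster 0 while 380 of the 729 from TS lay in cluster 15, which was led by the stress and inflammatory genes Cxcl2, Dusp2, Socs3, and Tnf. Within cluster 0, Serpina3g was at 71.6, 169, 163, and 332 in CBM, TBM, CS, and TS. The difference was therefore also seen inside a single cluster, with log2 ratios of 1.24 (1.11 to 1.37) in BM (TBM over CBM) and 1.02 (0.79 to 1.25) in spleen (TS over CS), where 2.15% and 2.07% of genes were at least 2-fold higher. Cluster 8, led by Cd34, Dntt, and Cd27, gave 1.58 (1.34 to 1.83) and 0.89 (0.65 to 1.13). In cluster 15, which held 4 CBM barcodes, TS was above CS by 1.49 (1.11 to 1.89). Without cluster 15 the TS over CS ratio of HSPC-like cells was 0.73 (0.58 to 0.87).

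Megakaryocyte-like cells, which express the platelet genes Pf4, Vwf, and Itga2b, had a Serpina3g ratio of 1.52 (1.42 to 1.63) in BM (TBM over CBM) and 1.06 (0.96 to 1.17) in spleen (TS over CS), or 2.87-fold and 2.09-fold. Members at least 2-fold higher were Serpina3f, Serpina3g, and Serpinb1a in TBM, where 2.72% of genes were, and these and Serpinb6a in TS, where 2.57% of genes were. The larger clusters of the class gave alike values, 1.59 in BM and 1.04 in spleen for cluster 3, and 1.41 and 1.11 for cluster 18. Cluster 29, with the platelet chemokine gene Ppbp and a median of 3722.5 UMIs, had 0 Serpina3g UMIs in CS and TS, which at 3 counts allows levels of up to 26.5 and 32.9 CPM.

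**Figure D2:**
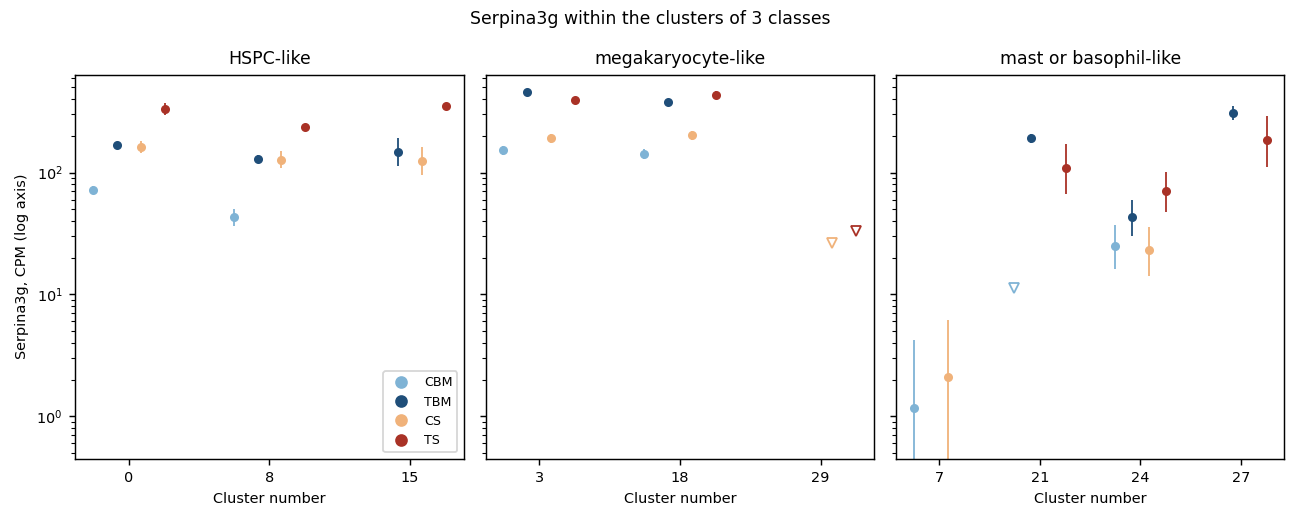
Serpina3g in CPM (log axis) in the single clusters of the HSPC-like, megakaryocyte-like, and mast or basophil-like classes, for libraries with at least 20 barcodes in the cluster. Bars are exact Poisson 95% intervals and open triangles the level of 3 counts where there were 0 UMIs. In clusters 0, 8, 3, 18, and 24 both tumor-bearing libraries sit above the control library of the same organ, and control cells of cluster 7 are near 0.

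Mast or basophil-like cells showed the widest gap. Serpina3g was at 9.08 (5.99 to 13.2) in CBM (27 UMIs) and 9.91 (6.29 to 14.9) in CS (23 UMIs), against 178 (165 to 191) in TBM (733 UMIs) and 95.98 (74.5 to 122) in TS (68 UMIs). The control libraries overlapped each other, and both tumor-bearing libraries were far above them, at log2 ratios of 4.29 (3.74 to 4.90) in BM (19.6-fold) and 3.28 (2.57 to 4.02) in spleen (9.68-fold). The size of these ratios moved with the processing, from 3.37 and 2.30 with barcodes classed one by one from their markers to 6.26 and 5.72 at the coarser cluster resolution of 0.6. Serpina3f, Serpina3g, and Serpinb1a were at least 2-fold higher in TBM, where 4.82% of genes were, and of the 5 members with 20 UMIs Serpina3g was in TS, where 5.27% were. The libraries did not share the clusters of this class. Of CBM and CS barcodes, 411 and 283 lay in cluster 7, led by the chemokine genes Ccl3 and Ccl4, while 269 TBM barcodes lay in cluster 21, led by the basophil proteases Prss34 and Mcpt8, and 162 in cluster 27. In cluster 7, Serpina3g had 2 UMIs in CBM and 3 in CS. In cluster 21 it was at 191 (174 to 208) in TBM and had 0 UMIs in the 33 CBM barcodes, so the TBM level was at least 16.9-fold higher, with 3 counts set for CBM, in a cluster where 10.8% of genes were at least 2-fold higher. Cluster 24 was found in every library and was mixed, led by the eosinophil granule gene Prg2, by Gzmb, and by the mast cell proteases Cma1 and Mcpt1, with Prg3 and Epx of eosinophils also among its top 10 genes. Its Serpina3g levels were 25.1 (16.2 to 37.05) in CBM, 43.2 (30.4 to 59.5) in TBM, 23.1 (14.1 to 35.6) in CS, and 70.4 (47.5 to 101) in TS. The ratio there was 0.78 (0.01 to 1.58) in BM (TBM over CBM) and 1.61 (0.75 to 2.50) in spleen (TS over CS), below the ratio of the whole class. In the class ratio, the unlike clusters of the libraries cannot be told apart from a difference within a cell type.

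Serpina3g was lower in most of the remaining classes, although CS dendritic cell-like cells (111) stood above CBM HSPC-like cells (63.5). Granulocyte-monocyte progenitor-like (GMP-like) cells had 12.6, 27.5, 33.2, and 47.8 CPM in CBM, TBM, CS, and TS, with ratios of 1.13 (0.77 to 1.51) in BM and 0.53 (0.20 to 0.87) in spleen. Monocyte-like cells had 4.17, 17.1, 16.9, and 25.2. B lineage-like cells, with enough barcodes in BM alone, had 5.78 (2.64 to 10.97) in CBM and 49.6 (35.1 to 68.01) in TBM, from 9 and 38 UMIs. In each of these the tumor-bearing library was above the control, but B lineage-like and monocyte-like cells came from unlike clusters, with 171 of 247 CBM barcodes in cluster 26 and 142 of 170 TBM barcodes in cluster 22 for the B lineage, and 397 of 829 CBM but 29 of 311 TBM monocyte-like barcodes in cluster 14. Cluster 25 raised 9 of 10 monocyte markers but stayed unnamed. Its barcodes, 213 of 216 from TBM, are therefore not in the monocyte-like values. Within single clusters the ratio for TBM over CBM was 2.54 (0.49 to 5.68) in cluster 22, 3.50 (2.17 to 5.003) in cluster 26, 1.52 (0.95 to 2.10) in cluster 16, and 1.82 (1.26 to 2.42) in cluster 17. The 325 dendritic cell-like barcodes of CS, which carried MHC class II genes and Xcr1, had 111 (104 to 118), and T, NK or innate lymphoid-like cells had 47.9 (37.9 to 59.7) in CS and 64.9 (55.2 to 75.8) in TS, a direction that turned when each barcode weighed the same (0.44 as summed and -0.24 as the mean of barcodes).

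Erythroid-like cells, the class taken as background, had 11.9, 8.49, 16.2, and 4.61. The class was not uniform: 552 and 407 of its 1383 CS barcodes lay in clusters 10 and 11, whose top 10 genes held no listed erythroid marker and where Serpina3g in CS was at 23.3 and 30.1. The top 10 genes of clusters 4 and 9, with 797 and 556 of the 2958 TS barcodes, held no listed erythroid marker either. Cluster 20, led by hemoglobin genes, had 5.74 (2.62 to 10.9) in CBM, 7.20 (3.93 to 12.1) in TBM, and 0 UMIs in CS and TS, which at 3 counts allows up to 2.31 and 3.37 CPM. In the class as a whole TS was below CS, at a ratio of -1.81 (-1.97 to -1.66), in a class whose CS barcodes lay mostly in clusters 6, 10, and 11 and whose TS barcodes lay mostly in clusters 2, 4, 6, and 9. Clusters 6 and 11, with over 100 barcodes of each spleen library, went the other way, with 2.04 (1.11 to 3.07) in cluster 6 and 0.79 (0.49 to 1.08) in cluster 11. Free RNA, the RNA of barcodes with at most 100 UMIs, held 28.4, 85.6, 41.7, and 45.5 CPM of Serpina3g, so it too was richer in Serpina3g in TBM than in CBM. With 10% of each class removed by the free RNA profile, the ratios of HSPC-like cells were 1.26 (TBM over CBM) and 0.99 (TS over CS). The free RNA of TBM lay above the TBM levels of B lineage-like (49.6), GMP-like (27.5), and monocyte-like cells (17.1). Ratios of these classes after the subtraction are not given here. The CBM levels of GMP-like, monocyte-like, mast or basophil-like, and B lineage-like cells lay at or below that of CBM erythroid-like cells within their intervals, and so did the CS levels of monocyte-like and mast or basophil-like cells beside CS erythroid-like cells, so these levels under the ratios are not read as expression, although the CS levels were above the limit for CS in cluster 20.

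Shares of barcodes with at least 1 Serpina3g UMI, taken after each barcode was thinned to 2000 UMIs, ordered the 4 libraries as CPM did within HSPC-like, megakaryocyte-like, and mast or basophil-like cells. The thinned share in HSPC-like cells was 12.5% (10.3 to 14.9) in CBM, 25.8% (23.02 to 28.6) in TBM, 23.3% (16.9 to 30.6) in CS, and 47.6% (43.9 to 51.3) in TS. The intervals are exact binomial 95% intervals, at median depths of 13815 (TBM) to 19727 (CS) UMIs and with no barcode too shallow. Unthinned, the shares were 52.1%, 80.3%, 83.02%, and 92.7%. Megakaryocyte-like cells had thinned shares of 26.9%, 51.4%, 28.9%, and 42.01% in CBM, TBM, CS, and TS. In mast or basophil-like cells the thinned shares were 0.778% (0.212 to 1.98), 21.98% (18.4 to 25.9), 0.870% (0.180 to 2.52), and 15.96% (9.22 to 24.95). The share in erythroid-like cells was 1.55%, 1.00%, 3.91%, and 1.29%, or 12.4%, 9.55%, 26.5%, and 8.38% unthinned at median depths of 14365 (TBM) to 46725 (CS) UMIs, which after thinning the control mast or basophil-like cells did not exceed.

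**Figure D3:**
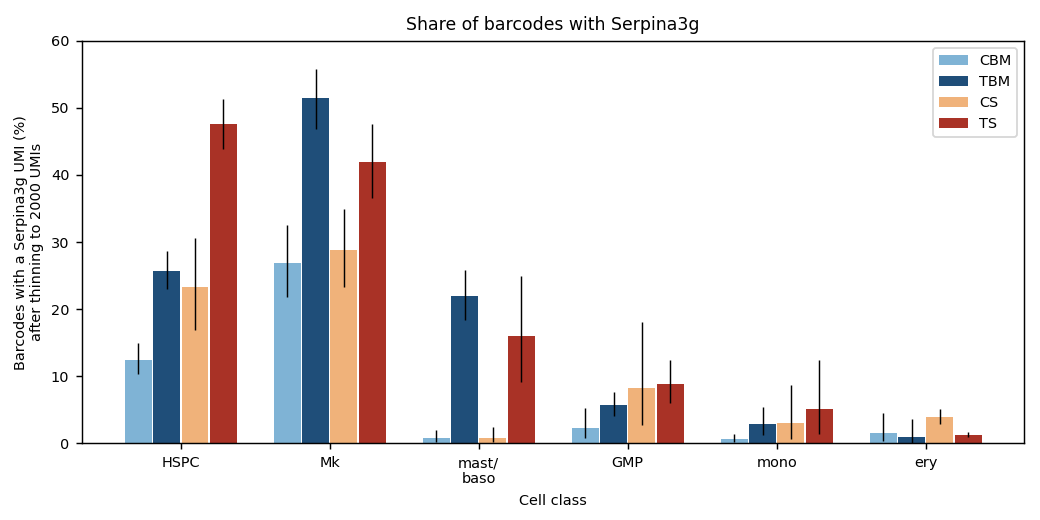
Percent of barcodes with at least 1 Serpina3g UMI after thinning each barcode to 2000 UMIs, by cell class and library, with exact binomial 95% intervals as black lines. The bars of TBM and TS are above those of CBM and CS in HSPC, Mk, and mast or basophil-like cells, and erythroid-like cells, the background class, stay between 1.00% and 3.91%.

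Serpina3f was measured from few UMIs, 13 to 144 per library in HSPC-like cells. Its level there was 0.974 (0.518 to 1.66) in CBM, 4.45 (3.50 to 5.59) in TBM, 11.03 (7.92 to 14.97) in CS, and 11.5 (9.71 to 13.6) in TS. TBM was above CBM, at a ratio of 2.19 (1.33 to 3.17), whereas the spleen libraries overlapped at 0.06 (-0.45 to 0.60), and CS was already 11.3-fold above CBM. Megakaryocyte-like cells had 2.87 (1.70 to 4.53), 11.4 (9.42 to 13.6), 5.87 (4.11 to 8.12), and 21.6 (17.4 to 26.4) in CBM, TBM, CS, and TS, with ratios of 1.99 (1.26 to 2.79) in BM and 1.88 (1.31 to 2.48) in spleen. Its highest level was in TBM B lineage-like cells, at 35.2 (23.2 to 51.2) against 8.35 (4.44 to 14.3) in CBM, a ratio of 2.08 (1.07 to 3.15). Most of these barcodes lay in cluster 22 in TBM and in cluster 26, led by Vpreb1, in CBM, and within them the ratio was 1.80 (-0.37 to 5.001) and 2.59 (1.36 to 3.85). In that class Serpina3f and Serpina3g, of 4 members with 20 UMIs, were at least 2-fold higher in TBM, where 3.96% of genes were. In mast or basophil-like cells it was at 1.68 and 2.16 in the controls and 14.3 and 8.47 in TBM and TS. Of the 90-base windows in the last 500 bases of annotated Serpina3g transcripts, 6.51% also occurred in Serpina3f, Serpina3h, or Serpina3i, and no such window of the other 5 members occurred in another gene. At 50 bases 19.5% of Serpina3g and 2.84% of Serpina3f windows were shared. So were 4.59% of Serpinb1a, 1.22% of Serpinb6a, and 5.47% of Serpinb6b windows, but none of Serpinb9. Some reads of these genes could thus belong to a paralog or have been dropped as ambiguous, and their share was not measured.

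**Figure D4:**
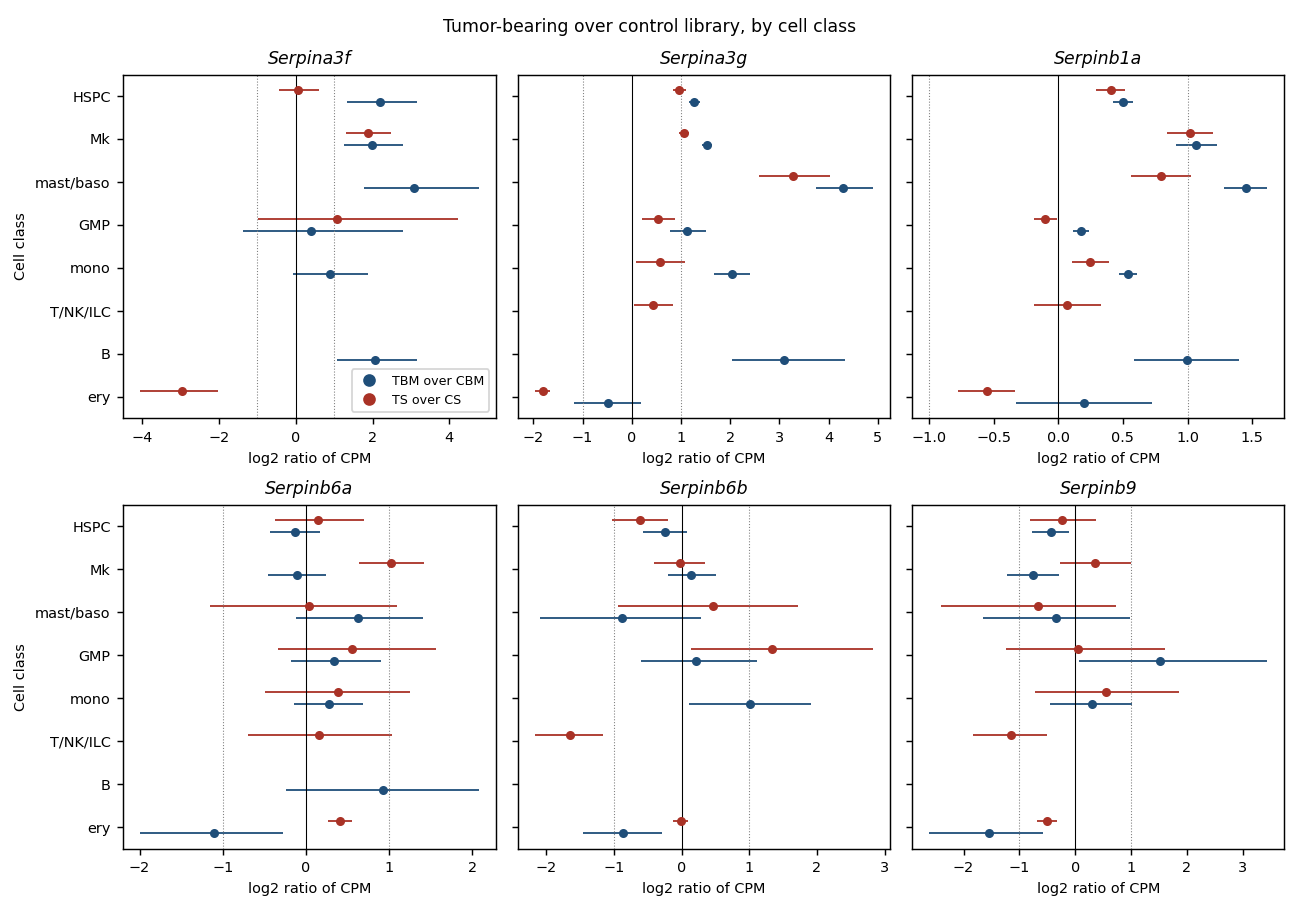
log2 ratio of CPM for TBM over CBM (dark blue) and TS over CS (red) by member and cell class, with exact conditional 95% intervals, for pairs with at least 20 UMIs over both libraries and at least 50 barcodes in each. Dotted lines mark 2-fold and each panel has its own axis range. Serpina3g is above 0 in every class shown but erythroid-like cells (in T, NK or innate lymphoid-like cells it turned to -0.24 as a mean of barcodes), and Serpinb6b and Serpinb9 are below 0 in T, NK or innate lymphoid-like cells of spleen.

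Serpinb1a, the inhibitor of neutrophil granule proteases, followed the granulocytic series. The 55 neutrophil precursor-like barcodes of TBM, which carried Ltf, Camp, and Ngp, had 1109 (1029 to 1194) CPM, the highest of the 30 pairs. This value leaned on the deeper barcodes, since the mean over barcodes was 686. GMP-like cells followed at 470.2 (452 to 489) in CBM, 530.3 (521 to 539) in TBM, 493 (467 to 521) in CS, and 459.6 (447 to 472) in TS. CS overlapped CBM and CBM overlapped TS, and the ratios were small, 0.17 (0.11 to 0.23) in BM (TBM over CBM) and -0.10 (-0.19 to -0.01) in spleen (TS over CS), where the sign turned at the coarser cluster resolution of 0.6, to 0.17. Members at least 2-fold higher in GMP-like cells were Serpina3g and Serpinb9 in TBM, where 3.8% of genes were, and Serpina3f and Serpinb6b in TS, where 3.95% were, and the Serpinb9, Serpina3f, and Serpinb6b calls rested on at most 5.84 CPM, with an interval of the Serpina3f ratio that included 0 and Serpinb6b at -0.23 when barcodes were classed one by one from their markers.

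Serpinb1a was also higher with a tumor in HSPC-like, megakaryocyte-like, mast or basophil-like, monocyte-like, and B lineage-like cells. In T, NK or innate lymphoid-like cells the interval of the ratio for TS over CS included 0, at 0.07 (-0.19 to 0.33), and in erythroid-like cells TS was below CS, at -0.55 (-0.77 to -0.33). HSPC-like cells had 168 (161 to 175), 237 (230.0 to 245), 217 (202 to 233), and 287 (278 to 297) in CBM, TBM, CS, and TS, and the ratio was 0.50 (0.43 to 0.58) in BM and 0.40 (0.29 to 0.52) in spleen. Megakaryocyte-like cells had 67.9 (61.6 to 74.7), 142 (135 to 149.7), 72.7 (66.1 to 79.8), and 147 (136 to 159), so the libraries of each state overlapped and the tumor-bearing ones were 2.10-fold (BM) and 2.02-fold (spleen) higher. Without cluster 29 the spleen log2 ratio was 0.99 (0.81 to 1.17), just under 2-fold. Mast or basophil-like cells had 126, 344, 193, and 335, with ratios of 1.45 (1.29 to 1.62) and 0.80 (0.56 to 1.03). In cluster 24 of that class the ratio was 0.79 (0.48 to 1.11) in BM and -0.03 (-0.38 to 0.30) in spleen, so the spleen difference was not seen in the cluster that all libraries shared. B lineage-like cells had a BM ratio of 0.99 (0.59 to 1.40). Monocyte-like cells had ratios of 0.54 (0.47 to 0.61) and 0.25 (0.11 to 0.39), or 0.30 and 0.17 in BM within clusters 16 and 17, and Serpina3g and Serpinb6b were the members at least 2-fold higher there in TBM, where 2.12% of genes were, with none of the 4 with 20 UMIs in TS, where 2.06% of genes were higher and 8.2% lower.

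Serpinb1a was lowest in erythroid-like cells, at 3.43 to 16.7, and in CS dendritic cell-like cells, at 9.74 (7.75 to 12.1). Free RNA was rich in Serpinb1a, with 165, 292, 53.3, and 93.2 CPM, and differed between the groups in the direction of the class ratios. After the 10% subtraction the megakaryocyte-like ratios were 1.14 in BM and 1.03 in spleen. Prtn3, a granulocytic marker, was in megakaryocyte-like cells at 157, 203, 54.1, and 89.7 and in HSPC-like cells at 814, 1592, 1069, and 1518 in CBM, TBM, CS, and TS, so it too was higher with a tumor, and its part in the Serpinb1a ratios was not tested.

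Serpinb6a was low and flat in most classes. Over the 30 pairs it ranged from 4.40 in CS dendritic cell-like cells to 32.1 (27.03 to 37.9) in TS megakaryocyte-like cells. In HSPC-like cells it was at 13.1, 11.98, 10.5, and 11.6, all overlapping. The exception was cluster 29, the Ppbp cluster of the megakaryocyte-like class, at 239 (157 to 347) in CS (27 UMIs in 26 barcodes) and 822 (647 to 1031) in TS (75 UMIs in 24 barcodes). The largest other cluster of the class, cluster 3, had 16.2, 13.8, 11.9, and 13.8. The TS over CS ratio of the class, 1.02 (0.64 to 1.41), was 0.39 (-0.12 to 0.90) without cluster 29, so the call of Serpinb6a past 2-fold rested on that cluster.

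Serpinb6b and Serpinb9 were highest in dendritic cell-like and in T, NK or innate lymphoid-like cells of CS. The dendritic cell-like barcodes of CS had 135 (127 to 143) CPM of Serpinb6b and 70.9 (65.4 to 76.9) of Serpinb9, and the 28 barcodes of TS had 81.8 (57.3 to 113) and 36.3 (20.8 to 59.03). Higher still was cluster 31, which was unnamed, 47 of its 62 barcodes from CS, and led by Ccl5, Fscn1, and Ccr7, genes known from mature migratory dendritic cells: its CS barcodes had 446 (392 to 507) of Serpinb6b and 276 (234 to 325) of Serpinb9. T, NK or innate lymphoid-like cells of CS came next among the named classes, with Serpinb6b at 64.3 (52.6 to 77.8) in CS and 20.4 (15.1 to 26.9) in TS, and Serpinb9 at 30.9 (23.04 to 40.7) and 13.9 (9.61 to 19.4). Both were lower in TS, by log2 ratios of -1.66 (-2.17 to -1.16) and -1.16 (-1.83 to -0.50), and these were the 2 of 5 members at least 2-fold lower in a class where 8.48% of genes were. The values came mainly from cluster 28, where Serpinb6b was at 72.6 in CS and 19.7 in TS.

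**Figure D5:**
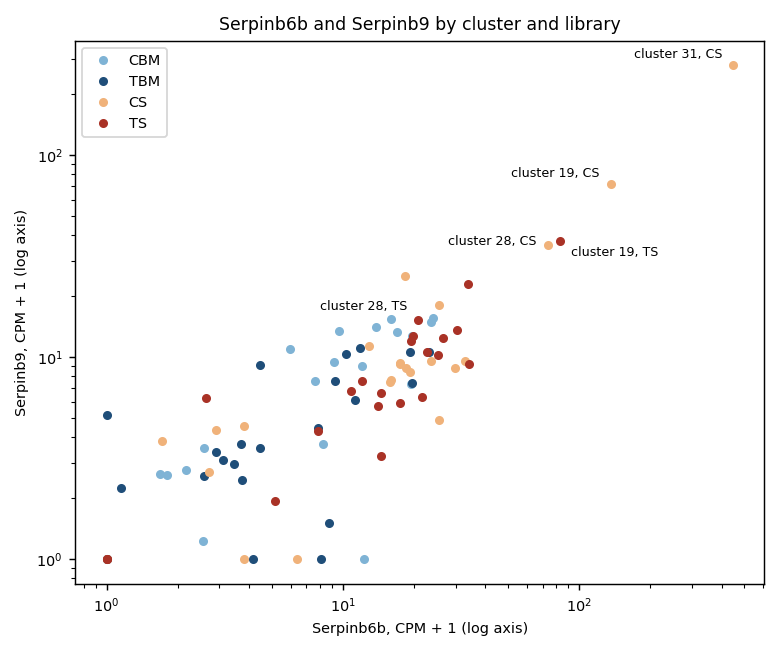
Serpinb6b against Serpinb9 in CPM plus 1 (log axes), 1 point per cluster and library with at least 20 barcodes. Cluster 31 and cluster 19 (dendritic cell-like) of CS lie highest on both axes, followed by cluster 19 of TS and cluster 28 (T, NK or innate lymphoid-like) of CS, and most other points lie below 30 on both axes.

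In the other classes both genes were at low levels, with Serpinb6b from 0.995 in CBM monocyte-like cells to 23.8 in CS megakaryocyte-like cells and Serpinb9 from 0.718 in CBM GMP-like cells to 13.2 in CBM megakaryocyte-like cells, save 0 Serpinb9 UMIs in TBM neutrophil precursor-like cells, which at 3 counts allows up to 4.72 CPM. Erythroid-like cells lay inside these ranges, at 10.03 to 18.2 of Serpinb6b and 3.09 to 8.99 of Serpinb9. The thinned share of barcodes with a UMI in CS dendritic cell-like cells was 20.9% (16.6 to 25.7) for Serpinb6b and 15.9% (12.1 to 20.4) for Serpinb9 (63.1% and 57.5% unthinned, at a median of 24476 UMIs), against 2.46% and 1.59% in CS erythroid-like cells (46.1% and 27.5% unthinned). Free RNA held 4.73, 6.28, 17.8, and 15.2 of Serpinb6b and 5.16, 1.65, 10.5, and 6.38 of Serpinb9 in CBM, TBM, CS, and TS. Serpinb9 was lower with a tumor in BM, by -0.44 (-0.78 to -0.10) in HSPC-like and -0.76 (-1.21 to -0.30) in megakaryocyte-like cells, while the spleen intervals included 0. In erythroid-like cells, Serpinb6a and Serpinb9 were the members at least 2-fold lower in TBM, where 7.72% of genes were, and Serpina3f and Serpina3g in TS, where 7.24% were. In both organs the 2 libraries were split differently between the erythroid-like clusters, and the part of this split was not tested.

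Spleen and BM libraries of one state also differed in HSPC-like cells. In controls Serpina3g was 2.31-fold higher in CS than in CBM at a ratio of 1.21 (1.05 to 1.36), and Serpina3f was 11.3-fold higher, the members at least 2-fold higher where 2.07% of genes were. Among the tumor-bearing libraries, TS was above TBM by 0.90 (0.83 to 0.97) for Serpina3g and 1.37 (0.96 to 1.80) for Serpina3f, and Serpina3f was the member past 2-fold, where 1.48% of genes were. Megakaryocyte-like cells of the tumor-bearing libraries had overlapping Serpina3g levels, at a ratio of -0.07 (-0.15 to 0.01) for TS over TBM. Serpinb6b was higher in CS than in CBM HSPC-like cells, by 0.79 (0.37 to 1.195). In the other classes, 1 member was at least 2-fold higher in CS than in CBM among GMP-like (Serpina3g, 2.65% of genes), mast or basophil-like (Serpinb9, 2.5%), megakaryocyte-like (Serpina3f, 1.73%), and monocyte-like cells (Serpina3g, 2.76%), and Serpinb1a was lower in erythroid-like cells, where 8.95% of genes were. In TS over TBM, Serpina3f in GMP-like (3.22% of genes) and Serpinb6b in mast or basophil-like cells (3.98%) were higher, Serpinb6a was higher and Serpinb1a lower in erythroid-like cells (18.2% and 11.3% of genes), and none was past 2-fold in megakaryocyte-like (2.48% of genes higher, 2.5% lower) or monocyte-like cells (1.15% and 4.38%). These comparisons share libraries with those above and are not independent of them. Because the members were chosen with such values known, their counts are not read against the shares of all genes.

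The genes most like each member over the 30 pairs, by Pearson's r of log2 (CPM + 10) among 9290 genes, were Ddx50 (0.87), Ctla2b (0.85), and Klk8 (0.82) for Serpina3g. Ctla2b belongs to a family of cathepsin propeptide-like inhibitors. For Serpinb1a they were Pkm (0.90), Lamtor4 (0.89), and Ckap4 (0.89). Serpinb9 was most like Wdr86 (0.88), Errfi1 (0.87), and Gpr132 (0.86), and Serpinb6b was most like Arhgap5 (0.86), Ppp1r12b (0.81), and Atp6v0a2 (0.81). For the low genes the values were 2610037D02Rik (0.78), Gpatch2 (0.78), and Pim2 (0.78) for Serpina3f, and Phlda1 (0.82), Kri1 (0.80), and Svil (0.78) for Serpinb6a. Among the members themselves, Serpinb6b and Serpinb9 had the highest r, 0.92, Serpina3f and Serpina3g had 0.63, and Serpinb1a and Serpinb6b had -0.56. Pairs share libraries and several come from 1 class, so these values are descriptions.

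Beside the members, 5 of the other 56 Serpin genes reached 20 CPM in a pair, and 29 of the 62 had no UMI in any kept barcode. Serpine2, an inhibitor of thrombin and plasminogen activators, was at 125, 215, 72.9, and 106 in mast or basophil-like cells, and in HSPC-like cells it was at 3.97 in CBM and 20.9 in TBM. Serpinf1, which encodes a secreted antiangiogenic factor, was highest in CBM monocyte-like cells at 66.7. For the 5 genes together, 1 of 4 with 20 UMIs was at least 2-fold higher in TBM HSPC-like cells and 2 of 4 were lower in TS, with median log2 ratios of -0.56 and -0.57, where 2.26% of all genes were higher in TBM and 3.88% lower in TS. In megakaryocyte-like cells 1 of 4 was lower in TBM and 0 in TS, against 1.82% and 1.85% of all genes. Serpinb8 and Serpinb2 peaked in the CS dendritic cell-like cells beside Serpinb6b and Serpinb9, at 26.1 and 21.6, and Serpini1 in TS mast or basophil-like cells at 22.6.

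Of 17 protease genes that serpins and related inhibitors meet in these cells, the targets of Serpinb1a were abundant in GMP-like cells, as Serpinb1a was. Their levels in neutrophil precursor-like cells, where Serpinb1a was highest, are not given here. In GMP-like cells of CBM, TBM, CS, and TS, Elane was at 7215, 4957, 6034, and 2945 CPM, Prtn3 at 8475, 9252, 7338, and 7340.0, and Ctsg at 4053, 4833, 3578, and 3352. Elane was thus lower in TBM than in CBM, where Serpinb1a was higher in TBM. The split of GMP-like barcodes between clusters 5 and 12 also differed between these libraries, and its part was not tested. In mast or basophil-like cells Ctsg was at 544 in CBM and 1239 in TBM, beside the higher Serpinb1a of TBM. The barcodes of these libraries lay mostly in different clusters. Ctsg in CS and TS, and Elane and Prtn3 in this class, are not given here. In HSPC-like cells 3 of 14 proteases with 20 UMIs were at least 2-fold higher in TBM and 0 lower, with a median log2 ratio of 0.45 against -0.03 over all genes tested, and in TS 1 of 13 was higher and 0 lower, with a median of 0.25 against -0.05. Of all genes tested in HSPC-like cells, 2.26% were higher and 3.12% lower in TBM, and 1.85% and 3.88% in TS. In mast or basophil-like cells 2 of 13 were higher and 1 lower in TBM, against 4.82% and 4.94% of all genes, and 3 and 1 of 12 in TS, against 5.27% and 9.81%. Gzmb, which encodes granzyme B, the target of Serpinb9, was at 229.8, 72.3, 1373, and 522 in mast or basophil-like cells. Serpinb9 was there at 3.70, 2.91, 11.2, and 7.06. Within this class Gzmb was among the top 10 genes of cluster 24 only, which held 72 CBM, 57 TBM, 60 CS, and 35 TS barcodes. Gzmb levels in dendritic cell-like and in T, NK or innate lymphoid-like cells, where Serpinb9 was highest, are not given here. The cathepsins Ctsb and Ctsl, targets of Serpina3g, were at 54.1 to 70.6 and 28.2 to 40.7 in HSPC-like cells, and their ratios for TBM over CBM were -0.14 (-0.27 to -0.01) and 0.53 (0.34 to 0.71).

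A list of 11 cytokine response genes held members on both sides of 0 in the classes where Serpina3g was higher. In HSPC-like cells 2 of 10 were at least 2-fold higher and 1 lower in TBM, and 2 and 1 of 10 in TS, with medians of 0.15 and 0.30, against -0.03 and -0.05 over all genes, of which 2.26% were higher and 3.12% lower in TBM and 1.85% and 3.88% in TS. Socs3, a feedback inhibitor induced by STAT3, was higher by 1.61 (1.44 to 1.79) in TBM and 1.33 (1.07 to 1.60) in TS. Bcl3, a nuclear IkB protein, was higher by 1.04 (0.73 to 1.35) and 1.36 (0.82 to 1.94). Socs3 was among the top 10 genes of cluster 15, which held 380 of 729 TS but 25 of 159 CS HSPC-like barcodes. The TS over CS ratio of Socs3 without that cluster is not given here. Iigp1 and Irf1, both interferon-induced, were lower in both tumor-bearing libraries. Iigp1, an immunity-related GTPase, had ratios of -1.80 (-2.06 to -1.54) and -2.24 (-2.68 to -1.81). Irf1, an interferon response factor, had -0.64 (-0.79 to -0.49) and -0.60 (-0.78 to -0.41). The list also held Gbp2, Gbp4, and Igtp, whose ratios are not given here, so Iigp1 and Irf1 do not stand for the whole list. In megakaryocyte-like cells 2 of 10 were at least 2-fold higher and 1 lower in TBM, against 2.72% and 1.82% of all genes, and 3 and 1 of 10 in TS, against 2.57% and 1.85%. In mast or basophil-like cells, where the Serpina3g ratio was largest, 1 of 9 were higher and 2 lower in TBM, against 4.82% and 4.94% of all genes, and 0 and 2 of 8 in TS, against 5.27% and 9.81%.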

How the data were processed

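The authors deposited unfiltered matrices of UMI counts per gene and barcode, which the submitters' processing notes credit to Cell Ranger 4.0 and mm10, made from 10x Genomics 3' libraries. Counts were summed over barcodes with at least 1000 genes and at most 10% mitochondrial UMIs, per class and library, as CPM with exact Poisson intervals. No doublets were removed. Barcodes were clustered by Leiden at resolution 1.2 (leidenalg 0.10.2, igraph 0.11.9), and clusters were named from fixed marker lists. Clustering left out 581 genes, among them Serpin genes, the listed proteases, and mitochondrial, ribosomal, and immunoglobulin genes. For shares, barcodes were thinned to 2000 UMIs. Ratios used pairs with at least 50 barcodes (20 within a cluster) and genes with at least 20 UMIs over both libraries, and a gene at 0 was set to 3 counts. The count scripts were tested on simulated data (Python 3.11.15, numpy 2.4.6, scipy 1.17.1, pandas 2.3.3).

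Named genes were the members, the other Serpin genes with at least 20 CPM in a class and library, 17 proteases, 11 cytokine response genes (1 further gene of that list is not reported here), and the 3 genes most like each member. Members and lists were chosen with earlier results of these data known. Alternatives covered the barcode filters, free RNA, clustering, class naming, weighting, depth, and scaling, and those within clusters or without clusters 15 and 29 were chosen after seeing the data. Promoters were RefSeq windows (GRCm38.p6), and coordinates came from the mouse GENCODE annotation of GRCm38.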

Additional observations from a re-analysis of the deposited data

Results flagged for a closer look

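The Serpinb1a ratio of GMP-like cells was on opposite sides of 0 in the organs, at 0.17 for TBM over CBM and -0.10 for TS over CS (log2), with intervals that left out 0 in each. The difference between the organs was not tested, since each group is 1 library, and the spleen value turned positive when clusters were coarser (0.17 at resolution 0.6). Serpinb6a in erythroid-like cells was likewise lower in TBM than in CBM, at -1.11, and higher in TS than in CS, at 0.41. This difference was not tested either, and the erythroid-like barcodes of CS and TS came from different clusters. Those of CBM and TBM were also split differently. Clusters 10 and 11 held 38 and 27 CBM but 6 and 4 TBM barcodes, and hemoglobin-led cluster 20 held 95 and 126.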

How the results depend on the processing

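Of the log2 ratios recomputed under the alternatives, 673 stayed within the counting interval of the reported value, 53 moved, and 5 turned. A ratio counted as turned only if its reported interval left out 0 and its sign changed. Sign changes of other ratios are not among the 5, as for Serpina3f in HSPC-like cells, TS over CS (0.06 to -0.10 without cluster 15). The turned values were Serpina3g in T, NK or innate lymphoid-like cells, TS over CS (-0.24 as a mean of barcodes), Serpinb6b in GMP-like cells, TS over CS (-0.23 with classes by markers per barcode), and Serpinb1a, TS over CS, in GMP-like cells (0.17 at resolution 0.6, 0.051 within cluster 5) and in mast or basophil-like cells (-0.033 within cluster 24).

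At resolution 0.6, Serpina3g ratios were 1.199 (HSPC-like, TS over CS), 1.61 (GMP-like, TBM over CBM), 5.72 (mast or basophil-like, TS over CS), and 6.26 (mast or basophil-like, TBM over CBM), Serpinb1a ratios were 0.43 (GMP-like, TBM over CBM) and 1.11 (mast or basophil-like, TS over CS), and levels were 451 CPM (Serpina3g, TBM megakaryocyte-like) and 41.3 (Serpinb6a, TS megakaryocyte-like). With classes by markers per barcode, Serpina3g was at 1.52 (GMP-like, TBM over CBM), 2.30 (mast or basophil-like, TS over CS), 3.37 (mast or basophil-like, TBM over CBM), and 1.65 (megakaryocyte-like, TBM over CBM), Serpinb1a at 0.87 (HSPC-like, TS over CS), and levels were 443 (Serpina3g, TBM megakaryocyte-like), 729.5 (Serpinb1a, TBM neutrophil precursor-like), and 125 (Serpinb6b, CS dendritic cell-like).

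As a mean of barcodes, Serpina3g was at 4.98 (mast or basophil-like, TS over CS), 5.76 (mast or basophil-like, TBM over CBM), and 1.41 (megakaryocyte-like, TBM over CBM), Serpinb1a at 1.11 (mast or basophil-like, TS over CS), and levels were 388 (Serpina3g, TBM megakaryocyte-like), 686 (Serpinb1a, TBM neutrophil precursor-like), and 74.2 (Serpinb6a, TS megakaryocyte-like). Without the 5% deepest barcodes, Serpina3g in TBM megakaryocyte-like cells was at 399.6, with a ratio of 1.33 over CBM. From 2000 genes per barcode, mast or basophil-like ratios for TBM over CBM were 3.47 (Serpina3g) and 1.27 (Serpinb1a), and Serpinb6a in TS megakaryocyte-like cells was at 16.7, or 45.3 from 350 genes.

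After the free RNA subtraction, levels were 458 (Serpina3g, TBM megakaryocyte-like), 1200.1 (Serpinb1a, TBM neutrophil precursor-like), 148 (Serpinb6b, CS dendritic cell-like), and 77.7 (Serpinb9, CS dendritic cell-like). Scaled without mitochondrial, ribosomal, and hemoglobin genes, these were 635, 1245, 184, and 97.0, Serpinb6a in TS megakaryocyte-like cells was at 48.4, and the Serpinb1a ratio of GMP-like cells, TBM over CBM, was 0.10.

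Within clusters, Serpina3g ratios were 1.58 (cluster 8, TBM over CBM), 1.49 (cluster 15, TS over CS), 1.41 (cluster 18, TBM over CBM), and 0.78 (TBM over CBM) and 1.61 (TS over CS) in cluster 24, and Serpinb1a ratios were 0.61 (cluster 0, TS over CS), 1.03 (cluster 21, TBM over CBM), 0.79 (cluster 24, TBM over CBM), and 2.90 (cluster 29, TS over CS). Without cluster 15, Serpina3g in HSPC-like cells, TS over CS, was at 0.73. Shares of all genes past 2-fold by class, TBM over CBM and TS over CS, were recomputed from 100 UMIs instead of 20. Of these shares, 26 changed by more than a set factor and 2 did not. Most shares of all genes given beside the members for these comparisons thus depended on the minimum of UMIs. The cause of each move was not tested. No paired analysis was possible because each group had 1 library, so no replicate could be left out either. Depth limited Serpina3f, Serpinb6b, and Serpinb9 in GMP-like and monocyte-like cells, where several libraries held fewer than 20 UMIs of a gene.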
